A study of Oryza sativa with 4 samples.

Results

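The leaf transcriptome of nontransgenic (NT) rice of the cultivar Nakdong was described from the 2 NT libraries among the 4 libraries of the series. NT plants are the nontransgenic controls that the study set against plants with OsNAC14, a NAC transcription factor, driven by the PGD1 promoter, and the 2 libraries of those plants were not used here. A transcript was called expressed when its FPKM (a read number scaled to transcript length and to the mapped reads of the library) was at least 1 in both NT libraries, and 29055 of the 37972 transcripts in the deposited table met this rule. The expressed transcripts came from 24944 of 31414 genes.

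The NT seeds were germinated for 4 days at 28°C on Murashige-Skoog medium and grown in a greenhouse at 3 plants per pot, and no drought was applied to the plants sampled here. The plants were given as 2 weeks old in the extraction protocol and as 20 days old in the sample labels. The labels also named another cultivar, spelled Nipponbre, whereas the deposited columns and the study named Nakdong. The study called the libraries biological duplicates, and the number of plants behind each is stated by no source used. With 1 group of 2 libraries no test was made, and every error below is the difference between these libraries, written as replicate 1 and then replicate 2.

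Leaves of rice fix carbon by the C3 pathway in mesophyll chloroplasts. Light is collected by chlorophyll a/b-binding proteins around photosystems I and II, and electrons pass through plastocyanin and ferredoxin to make the reducing power that the Calvin cycle uses. Rubisco, whose small subunit is encoded in the nucleus, also reacts with oxygen, and the product is recovered by photorespiration through the chloroplast, peroxisome and mitochondrion. The young blade also holds expanding and dividing cells near its base, and in bulk RNA fewer cells of a type and less RNA per cell cannot be told apart.

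The share of expressed transcripts, 76.5%, is the background for every count of expressed members below. A further 617 transcripts reached an FPKM of 1 in replicate 1 alone and 892 in replicate 2 alone, and 7408 were below 1 in both. The transcripts nearest the threshold on the inside were Os06t0618650-01, a non-coding transcript with 1.0001 and 1.16, and Os04t0391000-00 with 1.0009 and 1.196. On the outside, the non-coding Os03t0203750-00 had 0.9995 and 1.36, and Os12t0634500-00, a bZIP transcription factor, had 0.9993 and 1.29. For each of these 4 transcripts the distance to the threshold was smaller than the difference between the libraries.

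Levels were concentrated in few transcripts. The median expressed transcript had an FPKM of 9.02 in replicate 1 and 9.22 in replicate 2, with quartiles of 3.62 and 21.3 and of 3.81 and 21.5. Only 39 and 37 transcripts reached 1000, and they held 10.5% and 10.9% of all FPKM. The 10 highest transcripts held 4.87% and 5.27%, the 100 highest 15.96% and 16.6%, and the 1000 highest 41.5% and 41.8%. It took 1690 transcripts in replicate 1 and 1666 in replicate 2 to reach 50% of the summed FPKM. The libraries shared 94 of their 100 highest transcripts and 923 of their 1000 highest.

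**Figure D1:**
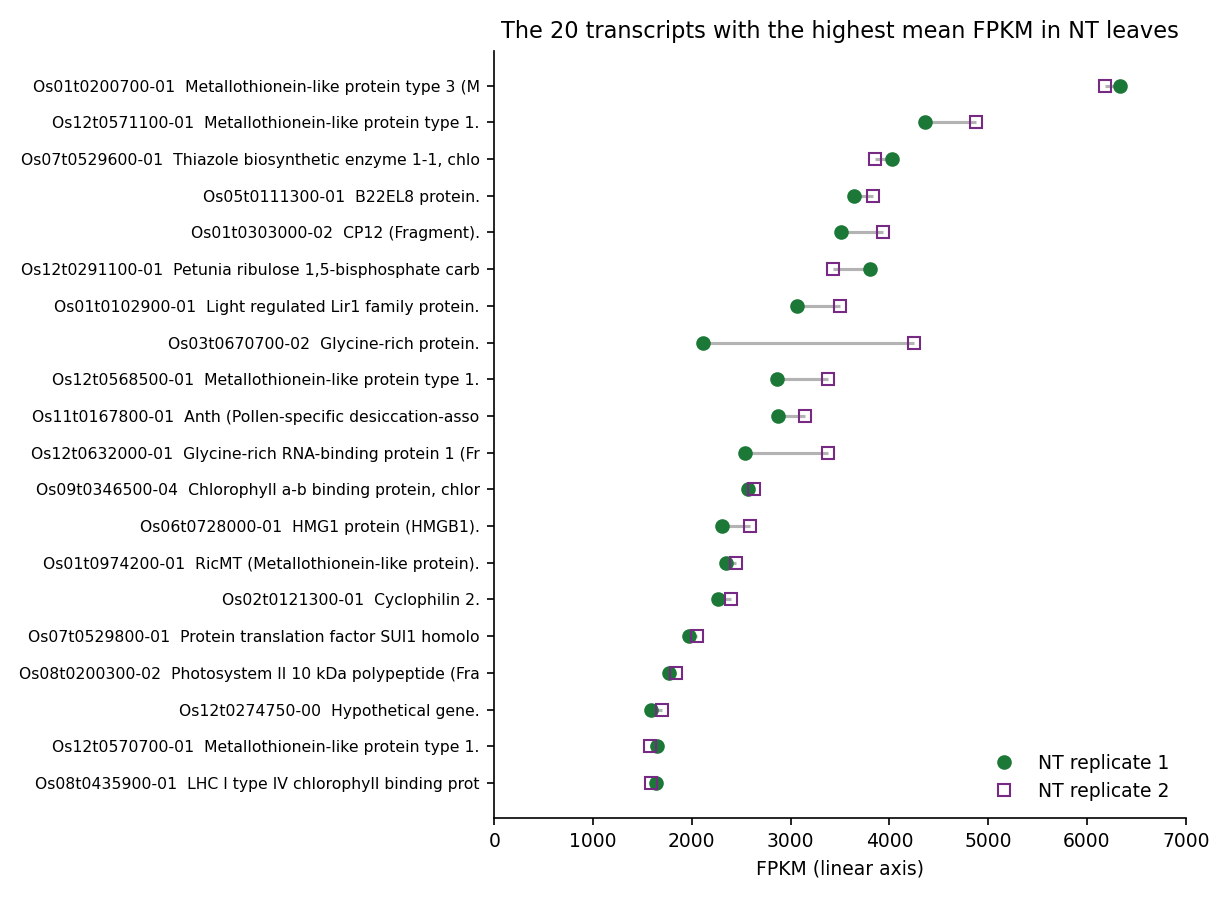
FPKM (linear axis) of the 20 transcripts with the highest mean in NT leaves, with replicate 1 as filled circles, replicate 2 as open squares and a line joining them. Metallothionein Os01t0200700-01 leads at 6332 and 6184, and the glycine-rich protein Os03t0670700-02 has the widest gap, 2118 against 4251. The 4 transcripts of that glycine-rich protein gene sum to 3579 and 5166.

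The highest transcript in both libraries encoded a metallothionein, a small cysteine-rich protein that binds metal ions. This type 3 metallothionein, Os01t0200700-01 (IRGSP-1.0, chr1:5478544-5479749), had 6332 and 6184, which was 0.842% and 0.807% of all FPKM. Type 1 metallothionein Os12t0571100-01 (chr12:23515074-23516013) followed with 4357 and 4874. The third rank was held by the thiazole biosynthetic enzyme Os07t0529600-01, which makes the thiazole part of vitamin B1, with 4027 and 3858. None of these 3 encodes a part of the photosynthetic machinery.

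The fourth transcript, Os05t0111300-01, was described only as B22EL8 protein and had 3638 and 3830. The other transcript of the same gene, Os05t0111300-02, was described as a metallothionein and had 6.67 and 6.59. CP12, a small chloroplast protein that binds Calvin cycle enzymes in the dark, had 3508 and 3938 (Os01t0303000-02). The Rubisco small subunit Os12t0291100-01 (chr12:11262586-11263593) was sixth with 3807 and 3431. The light-regulated protein Lir1, Os01t0102900-01, had 3063 and 3501. These levels lay close enough together that the order of ranks 3 to 6 differed between the libraries.

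The rest of the 20 highest mixed housekeeping and leaf functions. The glycine-rich protein Os03t0670700-02 had 2118 and 4251, the one transcript above 1000 FPKM that was at least 2-fold apart. Over the 4 transcripts of its gene the sum was 3579 and 5166, a factor of 1.44. The glycine-rich RNA-binding protein Os12t0632000-01 had 2542 and 3383. Os11t0167800-01, described after a desiccation-associated pollen protein of lily (LLA23), had 2870 and 3144. The chromatin protein HMGB1 (Os06t0728000-01) had 2308 and 2587, and cyclophilin 2 (Os02t0121300-01), a protein-folding enzyme, had 2268 and 2401. The translation factor SUI1 homolog GOS2 (Os07t0529800-01) had 1975 and 2050. Antenna and photosystem transcripts entered the list with the LHCII protein Os09t0346500-04 (2571 and 2632), the photosystem II 10 kDa protein Os08t0200300-02 (1769 and 1839) and the LHCI type IV protein Os08t0435900-01 (1638 and 1584).

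Photosynthesis transcripts, the defining markers of green leaf, were high. Of 206 transcripts in the 9 photosynthesis lists, 180 were expressed, or 87.4%, their median over all members was 37.9 against 5.48 over all transcripts of the table, and they held 5.98% and 5.86% of all FPKM. They made up 25 of the 100 highest transcripts.

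Light-harvesting proteins, the antenna of both photosystems, had 20 of 23 transcripts expressed with a median of 369. After Os09t0346500-04 and Os08t0435900-01, the highest were the LHCII protein Os01t0600900-02 with 1443 and 1472, the LHCI protein Os06t0320500-01 with 1290 and 1432, and CP29 (Os07t0558400-01), a minor antenna of photosystem II, with 1042 and 1060. The 3 members that were not expressed belonged to genes with another, expressed transcript. Of them, Os07t0562700-02 had 0.00254 and 0.000579, while Os07t0562700-01 of the same gene had 603 and 539. For subunits of the photosystems, 40 of 41 transcripts were expressed with a median of 90.5, and 20 had a mean of at least 100. Photosystem I subunit II (Os08t0560900-01), which docks ferredoxin, had 1062 and 916, and the 23 kDa protein of the oxygen-evolving complex (Os07t0141400-01) had 776 and 834. The lowest expressed members were the PsbQ family proteins Os04t0523000-00, with 4.35 and 4.94, and Os02t0631100-01, with 1.04 and 1.68.

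Electron carriers were led by plastocyanin, Os06t0101600-01, with 1308 and 1401. A Rieske iron-sulfur protein (Os07t0556200-01) had 474 and 490, leaf ferredoxin-NADP reductase (Os06t0107700-01) had 356 and 319, and ferredoxin I (Os08t0104600-02) had 205 and 184. These 4 carriers stood in the same order in both libraries. In all, 19 of 22 were expressed, with a median of 41.9.

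All 6 Rubisco small subunit transcripts, from 4 genes that all lie on chromosome 12, were expressed. Os12t0274700-02 had 1494 and 1486, Os12t0292400-01 had 502 and 512, and Os12t0291400-01 had 371 and 353. Os12t0291100-01, given above, was the highest of the 6 in both libraries, and Os12g0274700 is the gene the study used as its RbcS marker. The 4 genes share a description and may share reads, so that their separate levels are uncertain. Rubisco activase, which restores Rubisco activity, was represented by Os11t0707000-02 with 291 and 260, while the other gene, Os04t0658300-01, had 12.1 and 12.5. Of the 4 activase transcripts 3 were expressed, with a median of 12.3.

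Calvin cycle enzymes had 31 of 35 transcripts expressed, with a median of 87.4. The highest were chloroplast fructose-bisphosphate aldolase Os11t0171300-01 with 464 and 443, glyceraldehyde-3-phosphate dehydrogenase Os08t0126300-01 with 426 and 393, and Os03t0129300-01 of the same enzyme with 395 and 390. Ribulose-phosphate 3-epimerase (Os03t0169100-01) had 328 in both libraries. Photorespiration enzymes stood in the same range, with 27 of 31 expressed and a median of 62.2. The P subunit of glycine decarboxylase, the mitochondrial step that releases carbon dioxide, led them with 492 and 466 (Os06t0611900-01). Glycolate oxidase, the peroxisomal step, had 411 and 442 for Os03t0786100-02 and 309 and 333 for Os07t0152900-03.

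A single gene dominated carbonic anhydrase, which interconverts carbon dioxide and bicarbonate. The chloroplast form Os01t0639900-01 had 1275 and 1146, the next member, Os08t0470200-02, had 21.3 and 24.6, and 4 of 10 were not expressed. Tetrapyrrole synthesis, the route to chlorophyll and heme, was lower, with 28 of 34 expressed and a median of 28.9. Protochlorophyllide reductase, which makes chlorophyllide in the light, had 172 and 176 for Os04t0678700-01 and 71.9 and 68.5 for the B form Os10t0496900-01. The Mg-chelatase subunit Os03t0563300-01 had 77.4 and 69.4.

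**Figure D2:**
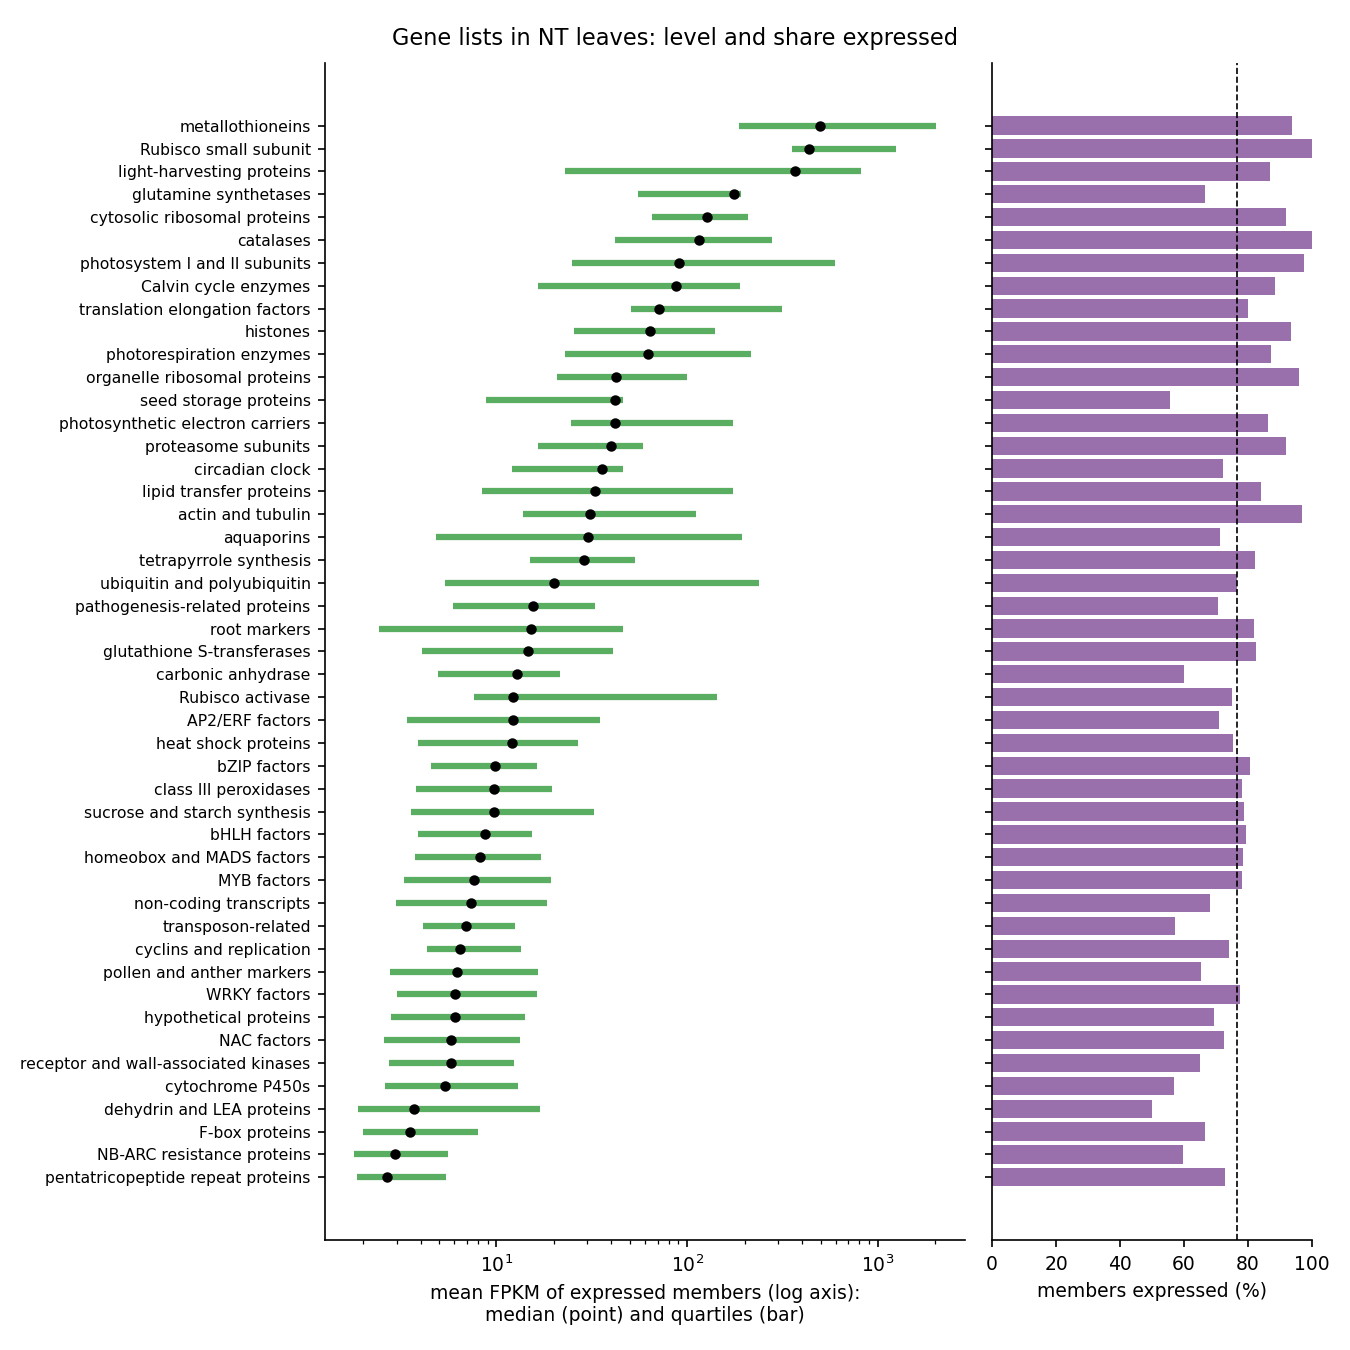
Left, mean FPKM of the expressed members of each of the 47 gene lists in NT leaves (log axis), with the median as a point and the quartiles as a bar. Right, the percentage of members expressed, with the dashed line at 76.5% for all transcripts. Metallothioneins have the highest median, 498, and pentatricopeptide repeat proteins the lowest, 2.67.

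Metallothioneins were the list with the highest median, 498 over the 15 expressed of 16 transcripts, and held 2.82% and 2.91% of all FPKM. Type 1 member Os12t0568500-01 had 2863 and 3382, RicMT (Os01t0974200-01) 2346 and 2444, and Os12t0570700-01 1644 and 1579. Only Os09t0244200-01, with 0.0766 and 0.0900, was not expressed. The list leaves out Os05t0111300-01, given above, because it is described as B22EL8 protein, although the other transcript of its gene is described as a metallothionein. Catalases, which break down the hydrogen peroxide that glycolate oxidase makes, were expressed in all 7 transcripts. Catalase A (Os02t0115700-01) had 637 and 627 and catalase B (Os06t0727200-01) 117 and 114. Summed per gene, catalase A (Os02g0115700) had 912 and 792 and catalase B (Os06g0727200) 170 and 152. The remaining gene of the list, Os03g0131200, summed to 398 and 357 over its 2 transcripts.

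Isozymes of nitrogen and carbon metabolism differed in level. For glutamine synthetase, which fixes ammonium, the shoot isozyme Os02t0735200-02 had 313 and 302, the chloroplast isozyme Os04t0659100-01 had 187 and 202, and the isozyme described as a root form, Os03t0223400-01, had 165 and 169. Summed over transcripts, the chloroplast gene Os04g0659100 was higher, with 394 and 365, than the shoot gene Os02g0735200, with 329 and 328. Another described root form, Os03t0712800-02, had 0.925 and 0.871, and 6 of the 9 transcripts were expressed, with a median of 175. In sucrose and starch synthesis 37 of 47 transcripts were expressed with a median of 9.74, and sucrose synthase Os03t0401300-03 was highest with 546 and 484. Granule-bound starch synthase Ib (Os07t0412100-01), the leaf-type enzyme for amylose, had 128 and 122.

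Protein synthesis transcripts held 4.58% and 4.44% of all FPKM. Cytosolic ribosomal proteins had 172 of 187 transcripts expressed with a median of 127, quartiles of 65.3 and 209, and 3.53% and 3.47% of all FPKM. Acidic protein P1 (Os08t0116500-01) had 696 and 692, L36-1 (Os05t0459900-01) 646 and 692, and S21 (Os03t0345200-01) 567 and 573. Expressed members were divided evenly, 86 higher in replicate 1 and 86 higher in replicate 2. Ribosomal proteins of the organelles were lower, with 75 of 78 expressed and a median of 42.3, and their highest member was L31 (Os01t0633000-01) with 240 and 265.

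Elongation factor EF-1 alpha was encoded by 4 neighbouring genes of chromosome 3, each among the highest of its list. Os03t0178000-01 had 643 and 530, Os03t0177400-01 had 572 and 456, Os03t0177500-01 had 483 and 354, and Os03t0177900-01 had 426 and 320. All 4 were lower in replicate 2, and as neighbouring genes of the same description they may share reads, so that their separate levels are uncertain. The list had 16 of 20 transcripts expressed and a median of 71.5. Polyubiquitin Os02t0161900-01 had 672 and 608, and UBIQUITIN1, the reference gene of the study for quantitative PCR, had 419 and 356 (Os06t0681400-01). Ubiquitin and polyubiquitin transcripts were expressed in 23 of 30 cases, at a median of 20.1. Proteasome subunits, which degrade ubiquitin-tagged proteins, were expressed in 69 of 75 transcripts, with a median of 39.7 and quartiles of 16.5 and 58.8. F-box proteins, which choose the targets of ubiquitin ligases, had 238 of 357 expressed at a median of 3.52, and the highest was Os02t0813350-01 with 63.4 and 63.8. Of the heat shock proteins 67 of 89 were expressed with a median of 12.1. Hsp70 Os11t0703900-01 had 1051 and 960, and the HSP82 protein Os09t0482100-01 had 244 and 224. Actin and tubulin, the cytoskeleton, had 32 of 33 expressed with a median of 30.9, led by alpha-tubulin Os11t0247300-01 with 905 and 881.

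Transport and surface proteins varied by family. Aquaporins, the water channels of membranes, had 15 of 21 expressed with a median of 30.4. Os02t0666200-02 was highest with 451 and 454, and PIP1.1 (Os04t0559700-01) had 271 in both. The 3 lowest, Os08t0151900-00, Os08t0152000-00 and Os08t0152100-00 of the NIP3 type, were neighbours on chromosome 8 and lay between 0.110 and 0.225. Lipid transfer proteins, which are secreted and many of which serve the cuticle, had 53 of 63 expressed with a median of 33.0, 17 of them at a mean of at least 100. Os11t0115350-01 had 519 and 552, and Os12t0115000-00, of a like description, had 503 and 534.

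Transcription factor lists were expressed at about the background share. Of 700 transcripts in the 8 lists, 538 were expressed, or 76.9% against the background of 76.5%. Their median over all members was 4.76 against 5.48 for the table, and none was among the 100 highest. The 8 lists include the clock list, described below, not all of whose members are transcription factors. AP2/ERF factors had the highest member, Os09t0434500-01, described as ethylene response factor 2, with 480 and 487, and ethylene-responsive factor 3 (Os06t0194000-01) had 216 and 212. By family, 59 of 83 AP2/ERF transcripts were expressed (median 12.2), 72 of 93 WRKY (6.06), 103 of 132 MYB (7.60), 93 of 117 bHLH (8.73), 46 of 57 bZIP (9.78) and 95 of 121 homeobox and MADS transcripts (8.24). A bZIP protein, Os05t0129300-02, had 250 in both, and a MYB-type protein, Os05t0114700-02, had 133 and 150. WRKY factors, many of which act in defence, were led by WRKY53 (Os05t0343400-01) with 89.5 and 101 and by Os05t0322900-01, similar to WRKY45, with 76.5 and 89.1. Among MADS-box genes, Os02t0761000-01, similar to MADS55, had 70.1 and 73.4.

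NAC factors, the family of the gene studied, had 58 of 80 transcripts expressed with a median of 5.80. The highest was Os05t0426200-02 with 183 and 170. OsNAC14 (Os01t0675800-01, chr1:27780947-27782265) had 3.16 and 3.70, which put it below the median of the expressed members of its family and at rank 22580 of all transcripts. It shares 49 of its 1319 nucleotides with the neighbouring gene Os01g0675700. No source states whether reads were counted by strand, so reads from such shared stretches cannot be told apart. Other NAC transcripts were higher, such as Os01t0884300-01 with 67.5 and 77.2. Os03t0815100-01, described as similar to OsNAC6, had 36.0 and 45.5. Os11t0184900-02, described as similar to NAC-domain protein 5-7, had 29.1 and 27.3. A likeness in a description does not identify the gene, so these values are not given as the level of OsNAC6 or of any other named NAC gene. Os11t0126900-01, a NAC-domain protein annotated to drought tolerance, had 4.09 and 3.41, close to OsNAC14.

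Clock transcripts were uneven, with 13 of 18 expressed and a median of 35.6. GIGANTEA, a clock protein whose transcript is known to peak late in the day, had 318 and 286 for Os01t0182600-01 and 169 and 176 for Os01t0182600-03. LHY, known to peak near dawn, had 3.31 and 3.25 for Os08t0157600-01 and 2.11 and 1.22 for Os08t0157600-02. FKF1 (Os06t0694000-01), a blue-light receptor, had 47.6 and 44.1. No source gives the hour of sampling. The expressed clock transcript furthest apart between the libraries was PRR73 Os03t0284100-02, with 7.01 and 65.2, and the sum over the gene was 50.8 and 111. Another gene within its span, Os03g0284150, went the other way with 128 and 104, so the difference at PRR73 is uncertain.

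Transcripts of the stress lists were mostly low in these unstressed leaves, with exceptions. Dehydrin and LEA proteins, which protect drying cells, had 16 of 32 transcripts expressed, a smaller share than the background, with a median of 3.71 among those expressed. Lea14-A (Os05t0584200-02) had 90.6 and 95.6, and the dehydrin Os02t0669100-01, which corresponds to the Dip1 marker of the study, had 88.7 and 93.8. The next was Os03t0843300-01 with 72.4 and 63.4. At the other end, Os05t0542500-01, a group 3 LEA protein, was below 0.001 in both libraries. The 2 transcripts of its gene, however, summed to 1.82 and 1.87. The LEA repeat proteins Os02t0250600-01 and Os03t0168100-01 had 0.0544 and 0.0237 and 0.0398 and 0.0649. A further LEA transcript, Os09t0482300-01, had the same values as Os09t0482550-01, 9.96 and 11.7, and both have the same length and description.

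Disease resistance proteins with an NB-ARC domain, intracellular immune receptors, had 191 of 319 expressed with a median of 2.94. The highest were Os11t0226933-01 with 32.4 and 28.5 and Os12t0586000-01, similar to ADR1, with 32.2 and 27.7. Pathogenesis-related proteins were higher, with 41 of 58 expressed and a median of 15.6. The Bet v I family protein Os04t0465600-01 had 261 and 319, and the PR-1a-like Os10t0191300-01 had 196 and 229. Receptor kinases (102 of 157, median 5.75), class III peroxidases (54 of 69, median 9.75) and glutathione S-transferases (47 of 57, median 14.6) lay between these lists. Cytochrome P450s, a family with many specialised metabolic roles, had 142 of 249 expressed, or 57.0%, and Os03t0658800-03 stood out with 213 and 217. Pentatricopeptide repeat proteins, which process organelle RNA, had the lowest median of all lists, 2.67, although 270 of 371 were expressed.

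Markers of dividing cells were present. Histones had 59 of 63 transcripts expressed with a median of 63.5, led by H3.3 (Os03t0390600-02), a variant also made outside of DNA replication, with 629 and 574, followed by H2A (Os03t0279200-01) with 316 and 369 and H4 (Os10t0539500-01) with 254 and 250. Proliferating cell nuclear antigen (Os02t0805200-01), the sliding clamp of DNA replication, had 59.3 and 56.0, cyclin B1-1 (Os01t0805600-01) 26.3 and 24.2, and the B-type cyclin-dependent kinase Os01t0897000-01 19.4 and 20.1. In all, 37 of the 50 cyclin and replication transcripts were expressed, or 74%, close to the background of 76.5%. Their median was 6.47, against 9.21 for all expressed transcripts. Which part of the leaf was taken is stated by no source used.

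Markers of other organs were not all low. Among 11 root-marker transcripts 9 were expressed, with a median of 15.2 and a summed FPKM of 0.0737% and 0.0711% of the total. RCc3 (Os02t0662000-01), known as a root-specific gene, had 392 and 390, and its relatives Os04t0554500-00 and Os04t0554800-01 had 57.6 and 57.4 and 48.8 and 43.6. The root cap proteins of the list were low, from Os01t0968300-01 with 0.253 and 0.285 to Os04t0410400-01 with 3.53 and 3.71. All 3 silicon transporters, chosen after their values were seen, were expressed. The influx channel Os02t0745100-01, best known from roots, had 166 in both libraries, the efflux transporter Os03t0107300-01 had 51.7 and 47.8, and the other influx channel, Os06t0228200-01, had 36.6 and 36.3. Whether the libraries held RNA of tissues other than the blade was not tested.

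Seed storage proteins had 5 of 9 transcripts expressed, with a median of 41.9, and Os01t0111900-01, described only as a glutelin family protein, had 116 and 146. The 3 lowest were Os02t0453600-01 (similar to glutelin) with 0.0340 and 0.0111, Os12t0472500-01 with 0.497 and 0.404, and the glutelin subunit Os01t0762500-00 with 0.558 and 0.461. Of 49 pollen and anther transcripts 32 were expressed, with a median of 6.19. Most of their 0.461% and 0.489% of FPKM was in the LLA23-like Os11t0167800-01 already given. Its description names desiccation as well as pollen, and it was not counted in the dehydrin and LEA list. The next were pollen Ole e I family proteins, Os10t0371000-01 with 225 and 210 and Os02t0317800-01 with 102 and 101. A tapetum bHLH factor, Os02t0120500-01, was below 0.001 in both, and the 2 transcripts of its gene summed to 0.337 and 0.565.

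Transcripts without a described function were common. Transcripts described as hypothetical, 7145 of 10301 expressed, held 16.2% and 16.1% of all FPKM, and non-coding transcripts, 1083 of 1591 expressed, held 3.21% and 3.16%. Transposon-related transcripts, 40 of 70 expressed, had a median of 6.94. Together, hypothetical and non-coding transcripts made up 20 of the 100 highest transcripts, against 28.3% of all expressed transcripts. The highest that overlapped no other gene was Os12t0515800-01, a conserved gene of 504 nucleotides, with 1282 and 1279, followed by Os08t0129800-01 with 1085 and 1244 and Os01t0910900-01 with 980 and 1225.

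Several high hypothetical transcripts lay on genes of known function. Os12t0274750-00, at rank 18 with 1587 and 1701, overlaps the Rubisco small subunit gene Os12g0274700, and Os12t0291733-00 (1047 and 1091) overlaps Os12g0291400, whose own transcript had 371 and 353. Os05t0135750-00 (1158 and 1027) lies on S-adenosylmethionine synthetase 1, Os05t0135700-01, which had 208 and 168. Os01t0764050-00 (560 and 600) lies on the glutathione S-transferase Os01t0764000-01, which had 117 and 137. In these pairs the hypothetical transcript had the higher value in both libraries. Among expressed hypothetical and non-coding transcripts 40.9% overlapped another gene, against 19.5% of the other expressed transcripts, and the FPKM of both members of such a pair may count reads of one.

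**Figure D3:**
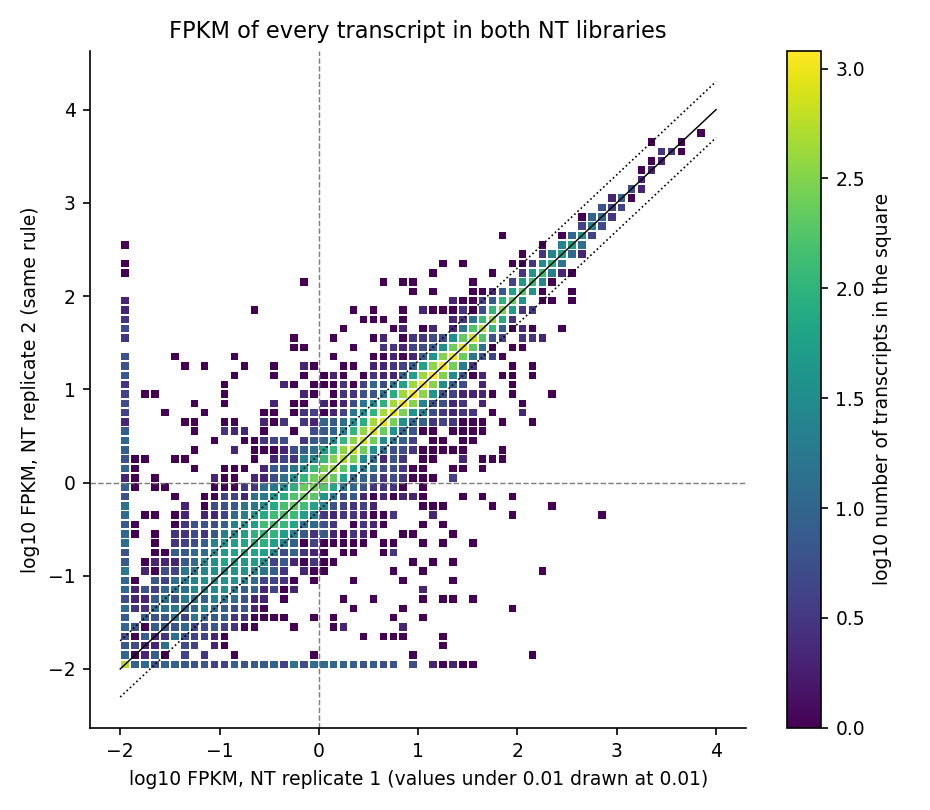
FPKM of all 37972 transcripts in NT replicate 1 (x) and replicate 2 (y) on log10 axes, with colour giving the log10 number of transcripts in each square, dashed lines at an FPKM of 1, a solid line of equality, dotted lines 2-fold from it and values under 0.01 drawn at 0.01. Most transcripts follow the line, while small numbers lie far from it at all levels, also along the edges, where a transcript is near 0 in one library and at up to 331 in the other.

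The libraries ranked the transcripts alike. Across all transcripts, which share their library and are not independent replicates, Spearman's rho was 0.972 and Pearson's r of log2(FPKM + 1) 0.975. Among expressed transcripts the median distance between the libraries was 0.11 on the log2 scale of FPKM + 1, a factor of 1.08, and 90% lay within a factor of 1.28. A distance of at least 2-fold was found for 459, which is 1.58% of expressed transcripts, with 236 (0.812%) higher in replicate 2 and 223 (0.768%) higher in replicate 1. Replicate 2 was the higher one for 15600 of them, or 53.7%.

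The low values carried the depth of the libraries. In genes with a single transcript of at least 700 nucleotides, FPKM multiplied by transcript length less a constant fell on steps that are whole multiples of 1 read. The steps of replicate 1 gave an estimate of 36950000 mapped reads and a constant of 178 nucleotides, with 93.5% of 1634 low values within 0.1 of a whole number of reads. Those of replicate 2 gave 56500000 mapped reads and 174 nucleotides, with 92.1% of 1005 low values as close. Values spread evenly would give 20%. The relative depth, 1.53 times as many reads in replicate 2, follows from the steps directly, and the totals are estimates. An FPKM of 1 in a transcript of the median length, 1454 nucleotides, then stood for about 47.1 and 72.3 reads.

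**Figure D4:**
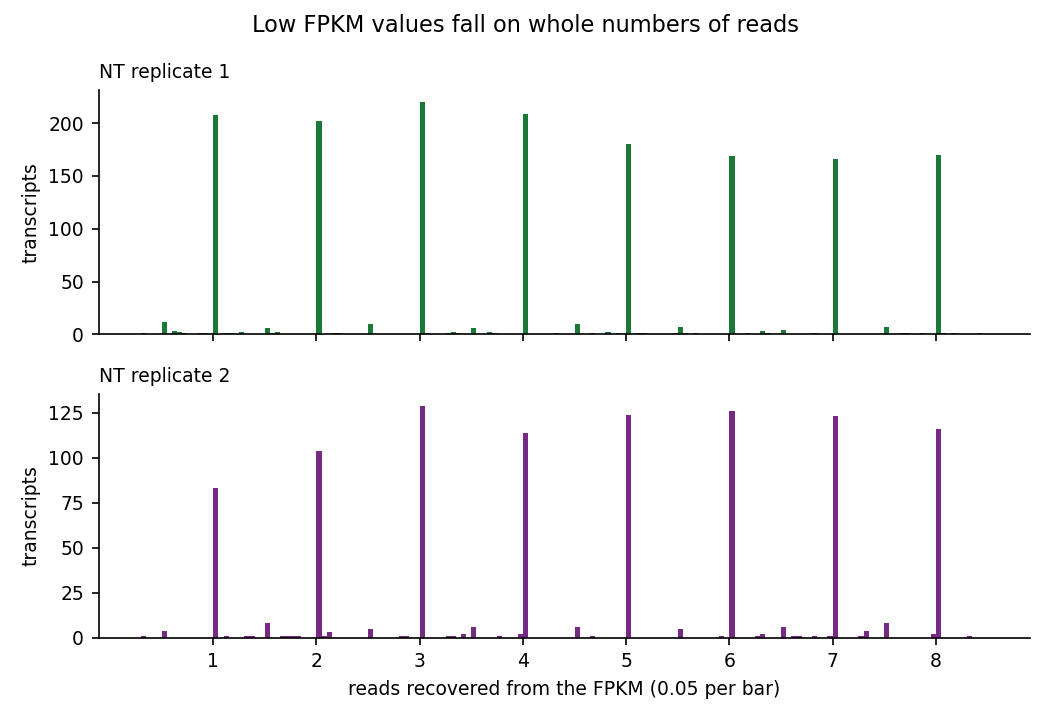
Number of single-transcript genes (y) by the number of reads recovered from their FPKM (x, bars of 0.05 reads), for NT replicate 1 above and replicate 2 below. Values pile up on the whole numbers 1 to 8, with 93.5% and 92.1% of the low values within 0.1 of one.

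With these depths the spread could be set beside counting error. For expressed transcripts with a mean FPKM of 1 to 2, the median distance was 0.11 (log2), and counting error alone would give 0.09. At 10 to 20 the median was 0.11 against 0.04, and from 100 to 1000 it was 0.09 against 0.02. On this scale of FPKM + 1, the observed distance stayed near 0.1 from the lowest to the highest levels, while the part that counting accounts for fell to under 0.01 above 1000. The added 1 shrinks both distances most at low levels, so the flat profile depends in part on it. The share at least 2-fold apart was between 1.55% and 2.63% in every class from 2 upwards, and 0 of 3079 in the class from 1 to 2, where 2 values of at least 1 with a mean under 2 cannot reach it on the scale of FPKM + 1.

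**Figure D5:**
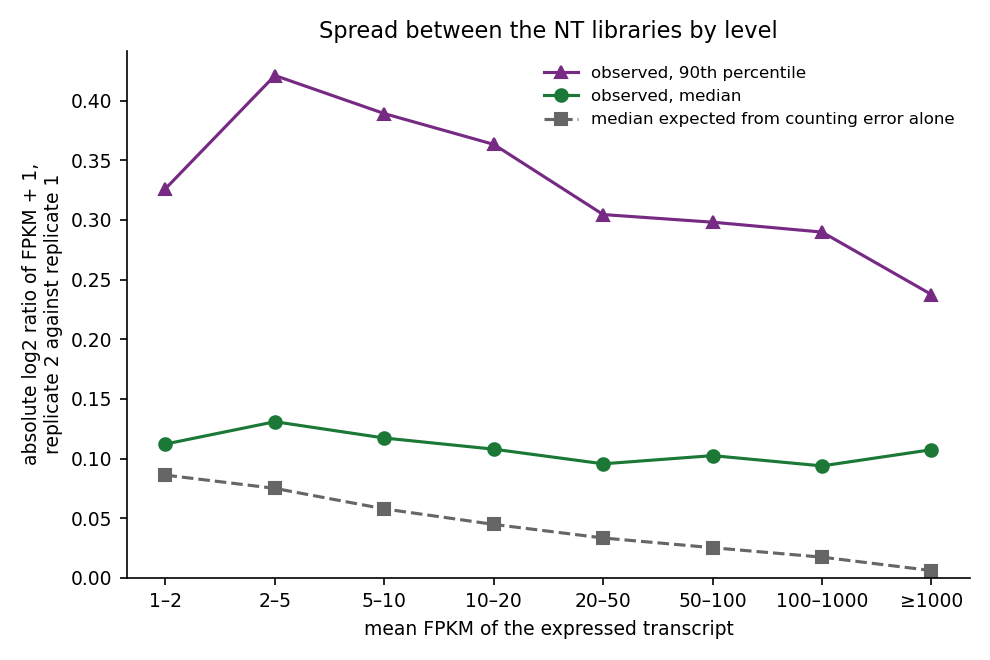
Absolute log2 ratio of FPKM + 1 between the NT libraries (y) by class of mean FPKM (x), as the observed median, the observed 90th percentile and the median that counting error alone would give at the estimated depths. The observed median stays between 0.09 and 0.13 in every class while the counting line falls from 0.09 to 0.01.

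Gene lists differed in how many members were higher in one library, where over all expressed transcripts 53.7% were higher in replicate 2 and the median log2 ratio was 0.01. Among lists with at least 10 expressed members, the 7 with the highest share in replicate 2 were lipid transfer proteins with 49 of 53 (median log2 ratio 0.25), pathogenesis-related proteins with 34 of 41 (0.28), AP2/ERF with 47 of 59 (0.14), glutathione S-transferases with 36 of 47 (0.13), WRKY with 55 of 72 (0.11), homeobox and MADS with 69 of 95 (0.07) and bHLH with 67 of 93 (0.09). The 5 with the highest share in replicate 1 were NB-ARC proteins with 133 of 191 (-0.06), elongation factors with 11 of 16 (-0.15), tetrapyrrole synthesis with 18 of 28 (-0.04), pentatricopeptide repeat proteins with 168 of 270 (-0.03) and proteasome subunits with 42 of 69 (-0.05). What set the libraries apart in these families was not tested.

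Transcripts far apart between the libraries often shared their locus with another. Of the 459 that were at least 2-fold apart, 413, or 89.98%, belonged to a gene with several transcripts or overlapped another gene, against 50.5% of all expressed transcripts. Among the 14373 expressed transcripts with neither feature, 46 were 2-fold apart, or 0.32%, and among the other 14682 it was 413, or 2.81%.

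At several of these loci a hypothetical transcript was high in replicate 1 and its overlapping partner in replicate 2. Os01t0357150-00, a hypothetical transcript (chr1:14447340-14453462), had 189 in replicate 1 and 0.102 in replicate 2. It overlaps ferredoxin-nitrite reductase, the chloroplast enzyme that reduces nitrite to ammonium, whose transcripts Os01t0357100-02 and Os01t0357100-01 had 7.47 and 158 and 3.45 and 53.3. Summed over the locus, the values were 200.02 and 211, while the nitrite reductase gene alone summed to 10.9 and 211.

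The same pattern was found at beta-tubulin and S-adenosylmethionine decarboxylase. The hypothetical Os02t0167366-00 had 154 and 0.0143 while beta-3 tubulin Os02t0167300-01 had 9.26 and 139, and the sum over the locus was 219 and 209.99. Os02t0611250-00 had 87.5 and 0.0455 against 12.4 and 70.4 for Os02t0611200-01, the polyamine enzyme, with sums of 99.99 and 99.96. At ribosomal protein S4 the sums were further apart, with Os02t0106001-00 at 200.4 and 0.535, Os02t0105900-01 at 79.4 and 406, and a locus sum of 280 and 407. At alpha-tubulin Os03g0726100, whose main transcript was high in both libraries, the hypothetical Os03t0726150-00 had 669 and 0.407, Os03t0726100-01 had 730 and 863, Os03t0726100-02 was below 0.001 in replicate 1 and at 79.6 in replicate 2, and the sum was 1399 and 943.

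In the other direction, transcripts near 0 in replicate 1 were high in replicate 2. Os04t0498600-02, described only by a clone name, was below 0.001 and then 331, with a locus sum of 400 and 452. Os02t0519900-02, of a gene whose other transcript is described as EF-2, was below 0.001 and then 207, with 309 and 376 at the locus, and Os03t0147400-02 was below 0.001 and then 172, with 168 and 223. The chaperonin transcript Os12t0277500-03, for a protein that assists Rubisco assembly, was below 0.001 and then 93.5, with 194 and 258. All 10 transcripts furthest apart overlapped another gene, and the locus sums differed by factors between 0.674 and 1.45. The table holds no exact 0, and 722 and 664 transcripts were below 0.001.

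In 4709 of 5153 genes with several transcripts, or 91.4%, the same transcript was highest in both libraries, and its median share of the gene's FPKM was 76.1%. The highest genes where the libraries disagreed were an aquaporin, a methionine synthase and chloroplast glutamine synthetase. In aquaporin Os07g0448800, the short non-coding transcript Os07t0448800-02 had 373 and 257 and the coding Os07t0448800-01 had 286 and 285. In methionine synthase Os12g0623900, which makes the methionine for methyl-group transfer, Os12t0623900-03 had 329 and 89.6 and Os12t0623900-02 had 105 and 293, with gene sums of 527 and 492. Glutamine synthetase Os04g0659100 had 187 and 202 for transcript 01 and 206 and 162 for transcript 03, and its sums were 394 and 365.

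Some genes had like values. In 54 pairs of expressed transcripts of different genes, length and description were identical and the values in both libraries agreed within 2%, and 15 of these pairs were hypothetical. Whether the members of a pair share sequence was not tested. The highest was a cytochrome b-c1 complex subunit 8, a part of mitochondrial complex III, where Os06t0175900-01 and Os06t0177000-01 both had 174 and 217. The allergen V5 proteins Os07t0124900-01 and Os07t0126301-01, of the pathogenesis-related list, both had 132 and 161.

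Expression was spread over all chromosomes. The share of expressed transcripts ran from 70.7% on chromosome 11, which had the lowest median FPKM, 3.42, to 80.1% on chromosome 3, which had the highest, 7.40. Despite its low median, chromosome 11 held 13 of the 100 highest transcripts with 5.54% of all transcripts, and chromosome 12 held 12. By length, 60 of the 100 highest transcripts measured 500 to 1000 nucleotides, against 21.6% of all transcripts, and 2 measured 2000 or more, against 26.8%, and transcripts of 4000 nucleotides or more had the lowest share expressed, 65.2%.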

How the data were processed

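Single-end reads were trimmed by the authors with Trimmomatic and aligned by TopHat against IRGSP-1.0 using the RAP-DB models. The authors deposited FPKM per transcript, scaled for transcript length and mapped reads. Not given in the sources used here are the program behind the FPKM and its use of strand. The sample labels name a strand-specific library method and the study the TruSeq RNA kit. The authors also deposited quantile-normalized log2 values of FPKM + 1, used here only as an alternative. The table holds 4 columns of libraries outside the series, which were not used. Its fold changes and p-values are the authors' own comparison and were not used.

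Only the columns of the 2 NT libraries entered. Calculations used Python 3.11.15, pandas 2.3.3, numpy 2.4.6 and matplotlib 3.10.9. Ratios between libraries were taken on FPKM + 1. The depth of a library was estimated from the steps of low FPKM values, in a fit tested on simulated data. The expected spread covers counting error only.

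Members of 47 lists were found by words in the description of each transcript. The members and lists were chosen with earlier results of these data known, and 290 accidental matches in 19 lists were dropped once the descriptions had been read. Transcripts named are the 20 highest, up to 5 highest and 3 lowest of each list, the 5 furthest apart in each direction with a mean FPKM of at least 10, those nearest the threshold, 3 genes whose highest transcript differed, and, of the genes the study names, OsNAC14, other NAC genes, UBIQUITIN1, RbcS and Dip1. Others were chosen after their values were seen, among them silicon transporters, LHY, nitrite reductase and other partners of overlapping transcripts. Sequences of these transcripts were not used here.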

Additional observations from a re-analysis of the deposited data

How the results depend on the processing

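No paired analysis was possible because the NT libraries form 1 group and no result came from a test. The number of expressed transcripts, 29055, was 18897 with an FPKM of at least 5 in both libraries. It was between 30232 and 31768 under the other rules tried on threshold and scale, and 29672 to 29947 with each library alone. With FPKM summed per gene, 25008 of 31414 genes were expressed. The share of FPKM in the 100 highest was 17.3% with FPKM summed per gene, against 16.3%, and 16.001% to 16.6% in each library alone. The median distance between the libraries, 0.11 on the log2 scale, was 0.13 with a pseudocount of 0.1 and 0.13 with 0.01, 0.11 with the quantile-normalized values, 0.11 with no filter on FPKM, and 0.098 with FPKM summed per gene. The 459 transcripts 2-fold apart became 882 with no filter, 292 genes with FPKM summed per gene, 185 with an FPKM of at least 5 in both libraries, and between 448 and 624 under the other pseudocounts and the normalized values. In alternatives added after seeing the data, transcripts of genes with 1 transcript and no overlap gave 46 of 14373 and a median of 0.10, and FPKM summed over overlapping genes gave 57 of 22234 loci and a median of 0.096. The number of expressed members stayed within 1.5 times in all 47 lists at a threshold of 0.5, and in 29 of 47 at 5. FPKM sums weight short transcripts, so a locus sum is not a read sum.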

Other observations

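Groups outside the lists, chosen after the data had been seen, filled in growth and transport in the NT leaf. Cellulose synthases, which build the cell wall, had 16 of 24 transcripts expressed with a median of 46.7. The subunit Os05t0176100-05 (similar to RSW1) had 218 and 201, Os07t0424400-06 (cellulose synthase-7) 120 and 126, and Os07t0208500-01 (cellulose synthase-4) 118 and 114. Expansins, which loosen walls in growing cells, had 33 of 48 expressed with a median of 7.63, and the beta-expansin Os10t0556100-02 led with 96.0 and 100.3.

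Sugar export and nitrate uptake genes were moderate. Of 5 sucrose transporter transcripts 4 were expressed, with Os12t0641400-01 at 41.7 and 40.9 and Os03t0170900-01 at 24.8 and 26.8. SWEET proteins, which release sugar from cells, had 10 of 11 expressed, led by Os01t0881300-02 with 117 and 132. Nitrate transporters had 9 of 12 expressed, and the high-affinity type Os02t0595900-00 had 36.5 and 46.2. Nitrate reductase, the step before nitrite reductase, had 11.9 and 19.4 for Os08t0468100-01 and 12.2 and 12.8 for Os02t0770800-01. Over its 3 transcripts Os08g0468100 summed to 15.7 and 29.6. The gene Os08g0468200, which lies within its span, had 16.1 and 0.0162. As at nitrite reductase, the overlapping gene was high in replicate 1 alone, so the difference between the libraries is uncertain.

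KNOX homeobox genes, of which class I marks meristems, had 8 of 10 transcripts expressed. The highest of these 10 were Os08t0292900-01 (knotted-1-like 13) with 55.7 and 51.4 and Os06t0646600-01 (knotted-1-like 11) with 48.3 and 47.6. They stood above OSH15 (Os07t0129700-01) with 5.05 and 5.98 and OSH71 (Os05t0129700-01) with 8.58 and 9.49. The other transcript of Os06g0646600 is outside this group, and over its 2 transcripts that gene summed to 227 and 233.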
